A study of Rattus norvegicus with 60 samples.

Results

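MicroRNAs were measured in the dorsal root ganglia of untreated SD rats by small RNA sequencing. The libraries described are the 10 whose titles name the untreated controls and the small RNA assay, numbered control 1 to control 10, of 60 libraries in the series, which also holds mRNA and bisulfite libraries and ganglia of rats given complete Freund's adjuvant. All 10 came from rats labelled as receiving no treatment, kept on the same light cycle as the injected rats. Sex, age, the spinal level of the ganglia and whether several ganglia were pooled are not given in the labels. The protocol speaks of 10 randomly selected pairs of treated and untreated rats and names a multiplex small RNA kit for library construction. Every miRNA name ending in -5p or -3p was included, which gave 879 mature arms of 439 hairpins, 1 arm having no listed partner.

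A miRNA gene is transcribed as a hairpin. Drosha and Dicer cut the hairpin into a short duplex, whose strands are named the 5p and the 3p arm after the side of the hairpin they come from. Usually 1 arm is kept by an Argonaute protein and the other is degraded, and the kept arm pairs with messenger RNAs mainly through its seed, the bases from position 2 to position 8. The ganglion holds the cell bodies of somatosensory neurons, wrapped by satellite glia, together with Schwann cells, vessels and connective tissue. In such bulk tissue, fewer cells of a type and less RNA per cell cannot be told apart. Adapter ligation is known to favour some ends over others, so a level is a share of reads, and a difference between arms is a difference in reads.

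RefSeq sequences of build GRCr8 could be matched to 661 of the 879 arms, and these arms held 89.98% of the arm counts. The let-7 arms are shown because they were the most abundant family and because they differ from each other by so few bases. The seed is in capitals, and the lines run 5′ to 3′.
let-7a-1-5p: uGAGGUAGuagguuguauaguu
let-7b-5p: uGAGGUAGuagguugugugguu
let-7c-1-5p: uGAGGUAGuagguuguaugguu
let-7d-5p: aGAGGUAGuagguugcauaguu
let-7e-5p: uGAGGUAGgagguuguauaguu
let-7f-1-5p: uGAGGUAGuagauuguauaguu
let-7g-5p: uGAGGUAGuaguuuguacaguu
let-7i-5p: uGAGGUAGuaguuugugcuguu
miR-98-5p: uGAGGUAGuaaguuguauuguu
All 9 carried the seed GAGGUAG. With positions counted from 1 at the 5′ end of let-7a, let-7c differed by A19G alone, let-7e by U9G alone and let-7f by G12A alone, while let-7i differed at 4 positions, G12U, A17G, U18C and A19U. The sources used here do not say how reads that could come from more than 1 of them were counted, so the split among let-7 members is less certain than their sum.

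The most abundant arms outside let-7 that had a matched sequence are shown next, since the levels and families below are built on them.
miR-26a-5p: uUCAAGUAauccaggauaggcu
miR-143-3p: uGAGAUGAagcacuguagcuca
miR-27b-3p: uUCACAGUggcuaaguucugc
miR-30a-5p: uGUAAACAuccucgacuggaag
miR-148a-3p: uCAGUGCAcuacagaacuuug
miR-10a-5p: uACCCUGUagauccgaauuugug
miR-10b-5p: cCCUGUAGaaccgaauuugugu
miR-127-3p: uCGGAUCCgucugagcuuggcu
miR-9a-1-5p: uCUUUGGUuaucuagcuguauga
miR-126a-3p: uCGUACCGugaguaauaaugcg
miR-125b-1-5p: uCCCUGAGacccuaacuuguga
The listed miR-10b sequence began 2 bases inside that of miR-10a. Aligned with that shift, the 2 arms differed by U12A over 21 bases, counted along miR-10a, so grouping by seed separated them. The abundant arms miR-99a-5p and miR-30d-5p had no matched sequence and are given by name.

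The sensory organ cluster and the muscle miRNAs are shown because their values are followed library by library.
miR-182-3p: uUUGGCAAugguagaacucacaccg
miR-183-5p: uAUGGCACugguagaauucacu
miR-96-5p: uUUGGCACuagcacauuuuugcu
miR-1b-3p: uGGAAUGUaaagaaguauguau
miR-1-3p: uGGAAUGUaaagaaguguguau
miR-206-3p: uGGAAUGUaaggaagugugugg
miR-1b and miR-1 differed by 1 substitution, A17G counted along miR-1b, and shared the seed GGAAUGU with miR-206. The RefSeq hairpin of Mir182, at chr4:59752246-59752307 on the minus strand of GRCr8, is printed with its mature sequence in capitals.
Mir182: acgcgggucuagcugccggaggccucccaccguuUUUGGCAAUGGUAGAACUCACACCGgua
In this 62-base hairpin the mature sequence spanned positions 35 to 59, on the 3′ side, and the files name the arm miR-182-3p. In other mammals the same miRNA is named miR-182-5p.

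The 10 libraries held 3360055 to 9053663 counts each, control 1 having the fewest and control 8 the most. Counts assigned to whole hairpins rather than to an arm made up 0.938% of control 1, 0.414% of control 2 and 0.599% of control 3, and 0.117% to 0.259% of the other 7 libraries. Levels are given as counts per 1000000 arm counts (CPM). Between 758 and 855 arms had at least 1 count in a library, 683 were read in all 10 libraries, and 0 were read in none. No 2 libraries were alike within counting error: the chi-square per degree of freedom over arms was 73.6 to 995.4 for the 45 pairs, while Pearson's r of log2 CPM across arms was 0.969 to 0.994. Scaling moved control 1 the most. Its TMM factor was 0.36 above the mean library on the log2 scale and its DESeq2 size factor 0.42 above, so that CPM stood higher in control 1 by that much than levels under those factors.

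A small number of arms made up most of the untreated ganglion's miRNA reads. The 10 most abundant held 49.1% ± 1.47 of the arm counts and the 20 most abundant 69.3% ± 1.03 (SD, n = 10). It took 11 arms to reach 50% of the counts and 57 to reach 90%. By level, 637 arms averaged at least 1 CPM, 393 at least 10 CPM, 221 at least 100 CPM and 26 at least 10000 CPM, and those 26 held 75.9% of the counts. The 221 arms of at least 100 CPM held 99.2%.

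The top arm was miR-99a-5p, which lies in a cluster with let-7c and belongs to a family known for targeting mTOR. Its lowest, median and highest libraries had 60851, 63200 and 79892 CPM. It was the most abundant arm in controls 1, 2 and 4 but not in the others. let-7i-5p, a member of the let-7 family that represses growth and cell cycle genes, had 58407, 60908 and 76508 CPM and led in controls 3, 6, 7 and 9. miR-26a-5p, a widely expressed miRNA from introns of the Ctdsp phosphatase genes, had 46821, 59106 and 67529 CPM and led in control 5 alone. miR-143-3p, which is characteristic of smooth muscle and other mesenchymal cells, had 38134, 53432 and 99846 CPM and led in controls 8 and 10. So the order at the top was not settled between libraries: miR-99a-5p was above let-7i-5p in 6 of 10 libraries, let-7i-5p above miR-26a-5p in 8, miR-26a-5p above miR-143-3p in 8, and miR-143-3p above miR-27b-3p in 4.

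Further down, miR-27b-3p, made from the same cluster as miR-23b, averaged 53612 ± 6452 CPM. let-7f-1-5p averaged 49863 ± 7212 CPM (SD, n = 10), let-7g-5p 31817 ± 5140 CPM and let-7c-1-5p 30282 ± 4644 CPM. Each of these was above the next arm in the order in 6 to 8 of 10 libraries. miR-30a-5p had 31165, 35461 and 59328 CPM in its lowest, median and highest library, the highest being control 8, above 41670 CPM in the next. miR-148a-3p, which targets the DNA methyltransferase Dnmt1, had 22482, 34631 and 53463 CPM, with control 10 at the top and control 5 at the bottom.

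The ranks below the first 10 held several miRNAs tied to a lineage or a locus. miR-10a-5p averaged 25625 ± 4124 CPM and miR-10b-5p 24458 ± 2599 CPM (SD, n = 10). Both are encoded inside Hox clusters, and miR-10a was above miR-10b in 8 of 10 libraries, with a ratio of 1.04 ± 0.0862. miR-182-3p averaged 24320 ± 4639 CPM and miR-127-3p, from the imprinted Dlk1-Dio3 locus, 24256 ± 5567 CPM. miR-183-5p averaged 20699 ± 4405 CPM, and miR-127-3p over miR-183-5p was the only neighbouring pair among the 20 arms whose order held in 10 of 10 libraries. miR-30d-5p averaged 19285 ± 2041 CPM and miR-9a-1-5p, a miRNA of the nervous system, 19050 ± 2482 CPM. miR-126a-3p, from an intron of the endothelial gene Egfl7, averaged 17107 ± 3056 CPM. miR-125b-1-5p averaged 13710 ± 3400 CPM and the muscle miRNA miR-1b-3p 12762 ± 3325 CPM, above the let-7a-1-5p arm in 5 of 10 libraries only.

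**Figure D1:**
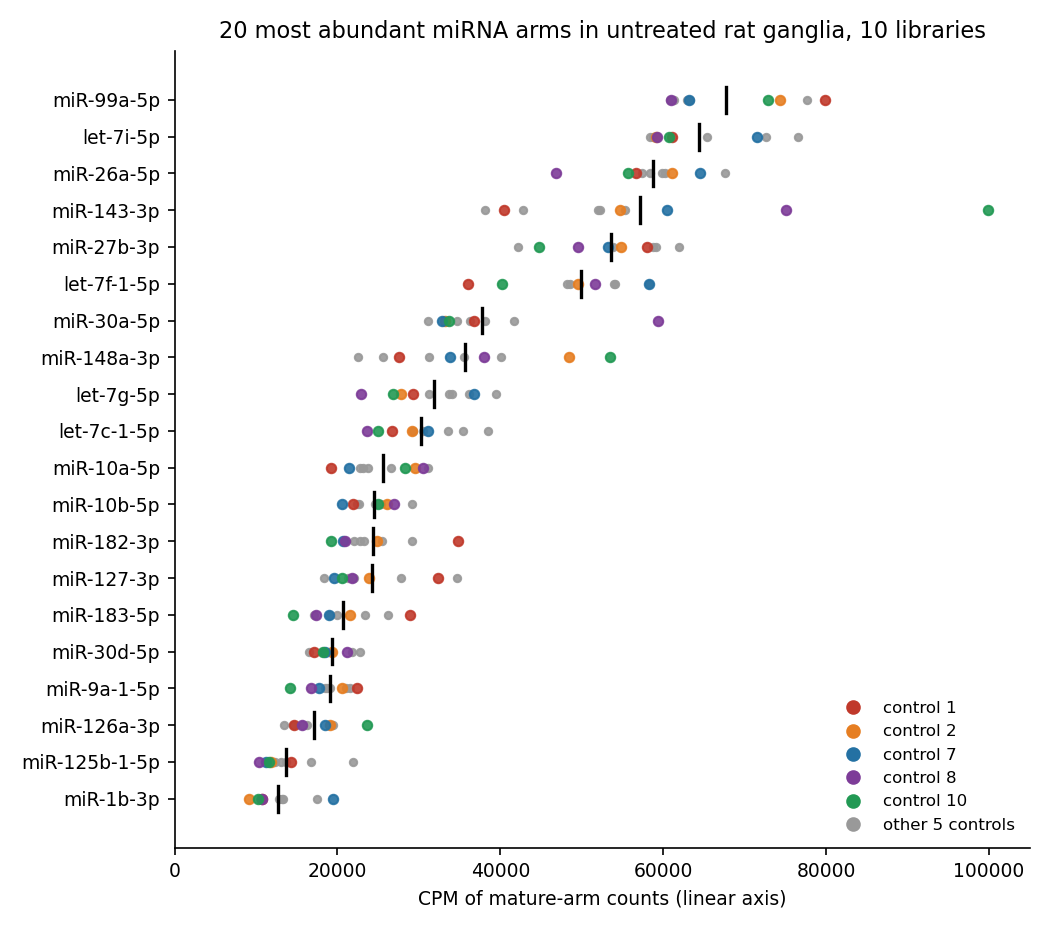
Level of the 20 most abundant mature arms in untreated ganglia, in CPM of arm counts; each point is 1 of 10 libraries (controls 1, 2, 7, 8 and 10 in colour) and the black tick is the mean. miR-99a-5p averaged 67702 CPM and miR-1b-3p 12762 CPM, and the points of neighbouring arms overlap, most widely for miR-143-3p, which ran to 99846 CPM in control 10.

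Families were formed by joining arms with the same number, miR-98 being joined to let-7. The let-7 family took the largest share, 20.5% ± 2.17 of the arm counts (SD, n = 10), with 17.7% in control 10, a median of 20.8% and 23.2% in control 9. Controls 1, 8 and 10 were the low libraries for let-7, at 17.8%, 18.0% and 17.7%. Within the summed let-7 level, let-7i-5p made up 31.5%, let-7f-1-5p 24.4%, let-7g-5p 15.6%, let-7c-1-5p 14.8% and let-7a-1-5p 6.195%. All 9 let-7 hairpins were read mainly from the 5p arm; let-7d-3p, the most abundant 3p arm among them, reached 546.7 CPM beside 3155 CPM for let-7d-5p.

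The miR-30 family, named in many tissues for roles in cell survival and differentiation, held 7.64% ± 1.09, and control 8 stood above the rest at 10.5%. The miR-99 family (miR-99a, miR-99b and miR-100 carry nearly the same sequence, but miR-100 is numbered apart) held 7.18% ± 0.761 and the miR-26 family 6.45% ± 0.585. The miR-27 family held 5.80% ± 0.697. Control 8, highest for miR-30, was the lowest library for miR-99 and miR-26. The miR-143 family held 5.74% ± 1.86, with 3.84% in control 4 and 10.1% in control 10, the widest spread of the 10 largest families relative to its mean. The miR-10 family held 5.04% ± 0.655, miR-148 3.86% ± 0.977, miR-127 2.50% ± 0.567 and miR-182 2.43% ± 0.464. Together these 10 of 363 families held 67.1% of the arm counts.

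Grouping by seed in place of number was done over the 661 arms with a sequence, which carried 564 seeds. The top arm, miR-99a-5p, had no matched sequence and was left out. The seed GAGGUAG of the 9 let-7 and miR-98 arms held 20.3% ± 2.17. The seed UCAAGUA of miR-26a and miR-26b held 6.45%, UCACAGU of miR-27a and miR-27b 5.78%, and GAGAUGA of miR-143 5.71%. GUAAACA, carried by miR-30a, miR-30c, miR-30e and miR-384-5p, held 5.28%. This is not a like for like measure of the miR-30 family by number, since miR-30b-5p and miR-30d-5p, with 2705 and 19285 CPM, were not grouped by seed. CAGUGCA joined miR-148a with miR-148b and miR-152 and held 4.65%. The miR-10 family separated into ACCCUGU with 2.56% and CCUGUAG with 2.45%, owing to the shifted start of the listed miR-10b sequence.

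**Figure D2:**
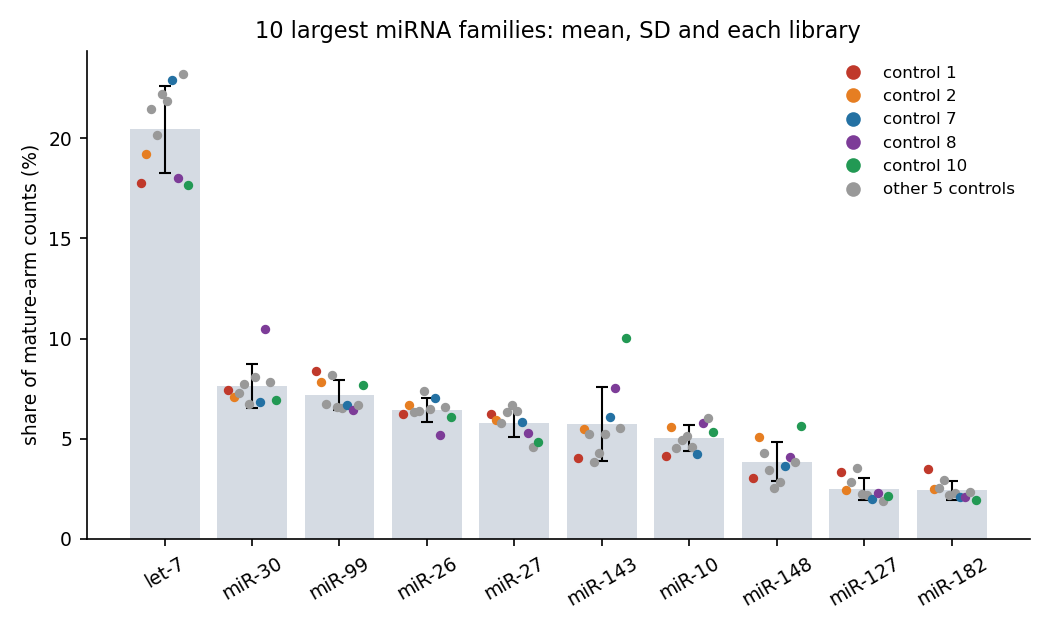
Share of arm counts, in percent, held by the 10 most abundant families; each point is 1 of the 10 untreated libraries, the grey bar is the mean and the error bar the SD. let-7 lies at 17.7% to 23.2%, apart from all the others, and miR-143 spreads from 3.84% to 10.1%.

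The first base of the abundant arms was mostly U. Among the 661 arms with a sequence, 246 (37.2%) began with U, 193 (29.2%) with A, 141 (21.3%) with C and 81 (12.3%) with G. Weighted by counts the shares were 84.4% ± 0.64 for U, 8.94% ± 0.421 for A, 6.003% ± 0.322 for C and 0.689% ± 0.126 for G (SD, n = 10, of counts with a sequence). The most abundant arm, miR-99a-5p, with 67702 CPM, had no matched sequence and is in none of these shares. Shares over all arm counts may therefore differ. miR-10b-5p, with 24458 CPM, is counted under C because its listed sequence starts 2 bases inside that of miR-10a. The C share thus depends on that listed start. The U share ran only from 83.3% in control 10 to 85.3% in control 6. Among the arms of at least 100 CPM with a sequence, 95 (48.0%) began with U, so the share of U grew with abundance. Argonaute proteins are known to bind a 5′ U or A more readily than a C or G.

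Which arm of a hairpin was read more was tested for each of 405 hairpins with at least 50 counts over both arms and all libraries, with edgeR's quasi-likelihood test and the library as a block. The 5p arm was higher for 181 hairpins (44.7%) and the 3p arm for 167 (41.2%) at a Benjamini-Hochberg adjusted p under 0.05, so 85.9% of the hairpins tested were called. The remaining 57 were not called. Among the 185 hairpins with at least 100 CPM over both arms, 98 were called for 5p, 80 for 3p, and 7 were not called. Over all arms, 65.2% ± 2.07 of the counts came from 5p arms (SD, n = 10), with 60.5% in control 10 and 64.1% to 68.0% in the other 9 libraries. With the arms of miR-182 turned, as it is named in other mammals, the share was 67.6% ± 2.24. The preference was usually steep: 206 hairpins differed by over 10-fold, 87 by over 100-fold and 20 by over 1000-fold, while 82 lay within 2-fold. All 10 libraries put the same arm higher in 295 hairpins. In 96 the libraries disagreed.

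The steepest 5p preference was that of miR-26a, with 3700089 counts of its 5p arm over the 10 libraries and 78 of its 3p arm, a fitted log2 ratio of 15.52 (SE 0.24, edgeR adjusted p = 2.80e-19). let-7g had 2004768 counts of 5p and 300 of 3p, a log2 ratio of 12.78 (SE 0.30). miR-21, known for its rise after injury and in inflammation, had 787747 counts of 5p and 170 of 3p, a log2 ratio of 12.05 (SE 0.35). The 5p arm of each was higher in all 10 libraries. miR-96 followed at 11.88 and miR-186 at 11.15.

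By the names in the files, the steepest 3p preference was that of miR-182, with 11 counts of the arm named 5p over the 10 libraries and 1501300 of the arm named 3p, a log2 ratio of -16.89 (SE 0.32, edgeR adjusted p = 8.54e-18). If its arms were turned to the naming of other mammals, miR-182 would be the steepest 5p hairpin and miR-1 the steepest 3p one; whether the name follows from the short annotated hairpin was not tested. Its cluster neighbours miR-183 and miR-96 went the other way by name, with 1274560 counts of 5p and 1685 of 3p for miR-183 and 292585 of 5p and 76 of 3p for miR-96. miR-1 had 3 counts of 5p and 58846 of 3p, so its log2 ratio of -13.68 (SE 0.36) rests on 3 reads of the lower arm. miR-1b had 64 counts of 5p and 805114 of 3p, a log2 ratio of -13.61 (SE 0.24). miR-103, made from introns of the Pank genes, had 83 counts of 5p and 381138 of 3p, and miR-101b, which targets the histone methyltransferase Ezh2, had 29 of 5p and 102796 of 3p, with log2 ratios of -12.14 and -11.71. The 3p arm of each of these 5 was higher in all 10 libraries.

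miR-26a, let-7g, miR-182 and miR-1b are also hairpins of the 20 most abundant arms; the other hairpins of those arms were less extreme, with the same arm higher in every library. miR-99a had a log2 ratio of 10.40, let-7i of 10.43, let-7f of 10.24 and let-7c of 9.68, all toward 5p. miR-27b had -9.41, miR-143 -7.42 and miR-148a -7.12, all toward 3p. The weakest preferences among them were those of miR-126a, with 1091 CPM of 5p and 17107 CPM of 3p (log2 ratio -3.96, SE 0.08), of miR-9a, with 19050 CPM of 5p and 625.1 CPM of 3p (4.95, SE 0.08), and of miR-127, with 753.2 CPM of 5p and 24256 CPM of 3p (-5.02, SE 0.12). Both arms of these hairpins were therefore among the arms of at least 100 CPM.

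**Figure D3:**
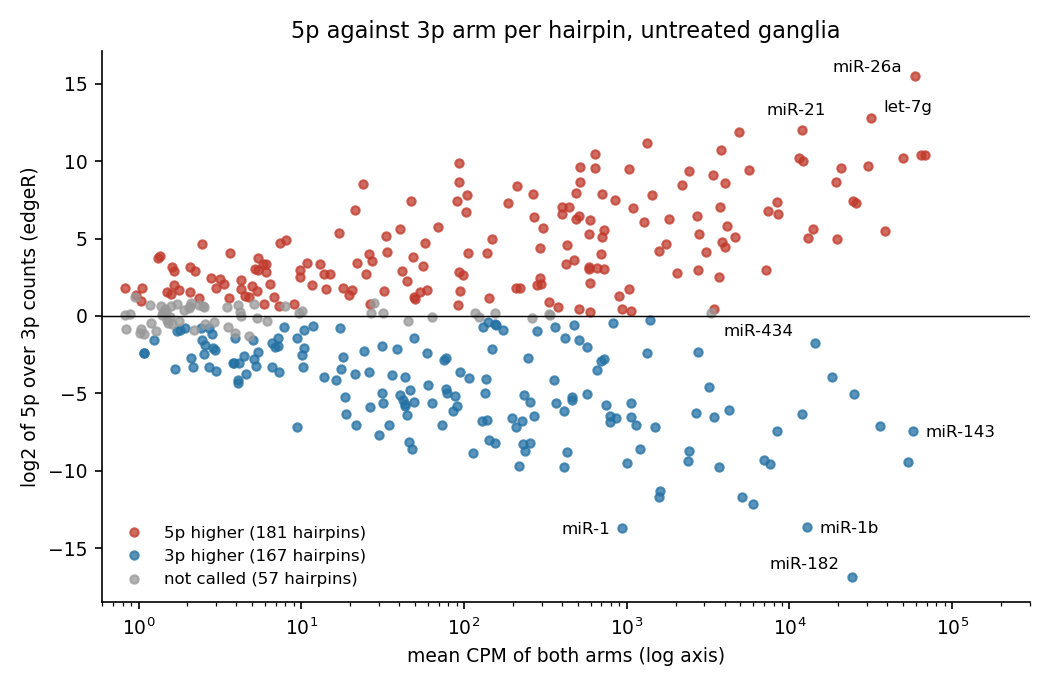
Fitted log2 ratio of 5p over 3p counts (vertical) against the mean CPM of both arms (horizontal, log axis) for the 405 hairpins tested in untreated ganglia; red, blue and grey points are hairpins called for 5p, called for 3p and not called by edgeR. The 181 red and 167 blue points spread about evenly on both sides of 0, with miR-26a at 15.52 and miR-182 at -16.89 as the ends.

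Among the 185 abundant hairpins, 7 were not called. miR-434, from the Dlk1-Dio3 locus, had 1751 ± 333.7 CPM of 5p and 1530 ± 255.7 CPM of 3p (SD, n = 10, log2 ratio 0.19, SE 0.10, edgeR adjusted p = 0.0970). Its 5p share was 39.5% to 59.9%, with 5p higher in 8 of 10 libraries, and without control 5 it was called for 5p at an adjusted p of 0.00563. miR-3068 had 172.7 CPM of 5p and 164.7 CPM of 3p, each arm being the higher one in 5 libraries. miR-106b, a member of the miR-17 group encoded in Mcm7, had 177.1 CPM of 5p and 155.6 CPM of 3p, also 5 libraries each way. The other 4 were miR-376b, miR-181c, miR-362 and miR-324, with log2 ratios of -0.13, 0.20, -0.07 and 0.22. miR-181c was called for 5p by DESeq2 at an adjusted p of 0.0465 and by the exact sign-flip permutation test at 0.0274. A p above the threshold does not show that their arms were equal.

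A further 5 abundant hairpins were called although the libraries did not all put the same arm higher. miR-423 had 344.6 ± 43.6 CPM of 5p and 474.9 ± 89.3 CPM of 3p (log2 ratio -0.45, SE 0.11, edgeR adjusted p = 0.00116), with 3p higher in 9 of 10 libraries. miR-29c, which targets collagens and other matrix genes, had 62.2 CPM of 5p and 94.9 CPM of 3p (log2 ratio -0.59, SE 0.14), 3p being higher in 9. miR-380, miR-409a and miR-667 lie in the Dlk1-Dio3 locus like miR-434 and miR-376b, with log2 ratios of 0.28, -0.24 and -0.37, each with 9 of 10 libraries on the side of the call. The call of miR-409a (adjusted p = 0.0241) was lost without control 2 (adjusted p = 0.0613) and without control 9 (adjusted p = 0.0642).

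The first base differed between the higher and the lower arm. Of the 178 called hairpins of at least 100 CPM, 141 had both sequences. The higher arm began with U in 78 of them (55.3%) and the lower arm in 27 (19.1%). A, C and G all went the other way. A began 35 higher arms (24.8%) and 52 lower arms (36.9%), and C 22 higher arms (15.6%) and 44 lower arms (31.2%). G began 6 higher arms (4.26%) and 18 lower arms (12.8%). The order was the same in either direction of call: U began 48 of 82 higher arms (58.5%) against 16 of 82 lower arms (19.5%) where 5p was called, and 30 of 59 (50.8%) against 11 of 59 (18.6%) where 3p was called. These shares are descriptions, given with no test.

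For 72 called hairpins RefSeq names a single mature sequence without an arm, as for miR-182 and miR-1b. Placed by its position in the hairpin, that sequence was the higher arm in 45 of the 72. Among those of at least 100 CPM the exceptions were miR-615 and miR-6331, where the 3p arm was higher and the RefSeq sequence lay on the 5p side, and miR-6324 and miR-711, where it was the other way round.

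Spread between libraries was far larger than counting error. For the 393 arms of at least 10 CPM the median coefficient of variation (CV) was 22.9%, while counting error alone gives a median of 3.45% (Poisson, which covers counting error only). The highest library was over 2 times the lowest in 206 of these arms (52.4%), over 5 times in 27 and over 10 times in 20. Without control 1 the arms over 2 times numbered 163. Control 1 was the highest library for 149 of the 393 arms (37.9%) when scaled by total arm counts, but for 48 under TMM factors and 39 under DESeq2 size factors.

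Among arms of at least 100 CPM, miR-711-5p varied most, with a CV of 132%. It had 420.6 CPM in control 1, 242.7 CPM in control 3 and 152.0 CPM in control 2, and 10.9 to 43.5 CPM in the other 7 libraries. These are the 3 libraries with the largest share of reads assigned to whole hairpins, 0.938%, 0.599% and 0.414%, and the part this played was not tested. miR-1-3p, which drives differentiation of skeletal and heart muscle, had a CV of 105%. It reached 3114 CPM in control 7, 2005 CPM in control 5, 1405 CPM in control 9 and 1157 CPM in control 10, and 194.5 to 449.0 CPM in the other 6. miR-206-3p, which is found in skeletal muscle, had a CV of 97.0%, with 384.3, 180.5, 179.8 and 107.9 CPM in controls 7, 5, 9 and 10 and 36.5 to 62.7 CPM in the other 6. The same 4 libraries were thus the high ones for miR-1-3p and miR-206-3p, but not for every muscle miRNA. The miR-133 family was above its median share of 0.102% in controls 7, 5 and 10. In control 9 it was below it, at 0.0845%, and control 1 had 0.146%. The summed muscle list described below was above its median of 14034 CPM in controls 7, 5 and 9 but not in control 10, at 13157 CPM.

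Control 8 was the highest library for 2 of the other wide arms and control 10 for another 2. miR-190a-1-5p, from an intron of Tln2, had a lowest, median and highest of 70.7, 113.8 and 387.6 CPM, with control 8 alone at the top. miR-451-5p, a red blood cell miRNA that Argonaute 2 cuts without Dicer, had 109.2, 428.2 and 783.5 CPM, and controls 4, 5 and 6 were its low libraries at 144.1, 109.2 and 141.7 CPM. miR-543-3p ran from 117.5 CPM in control 8 to 504.0 CPM in control 4, and miR-214-3p, a miRNA of mesenchymal cells, from 99.7 CPM in control 1 to 489.7 CPM in control 10. miR-145-5p, the cluster partner of miR-143, had 1647, 2145 and 5156 CPM, control 10 being the highest. miR-21-5p had 7167, 10424 and 22973 CPM, with control 6 highest and control 8 next at 16162 CPM. miR-137-3p, a neuronal miRNA, had 256.2, 365.7 and 828.0 CPM, with control 1 highest and control 5 next at 415.0 CPM.

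The steadiest arms of at least 100 CPM were miR-100-5p (CV 6.67%), miR-26b-5p (6.996%), miR-93-5p (7.21%), miR-99b-5p (7.49%) and let-7e-5p (7.56%). miR-100-5p lay between 10187 and 12316 CPM in all 10 libraries, and let-7e-5p between 2276 and 2995 CPM. Their counting errors were 0.387% to 1.89%, so even these varied by more than counting error.

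**Figure D4:**
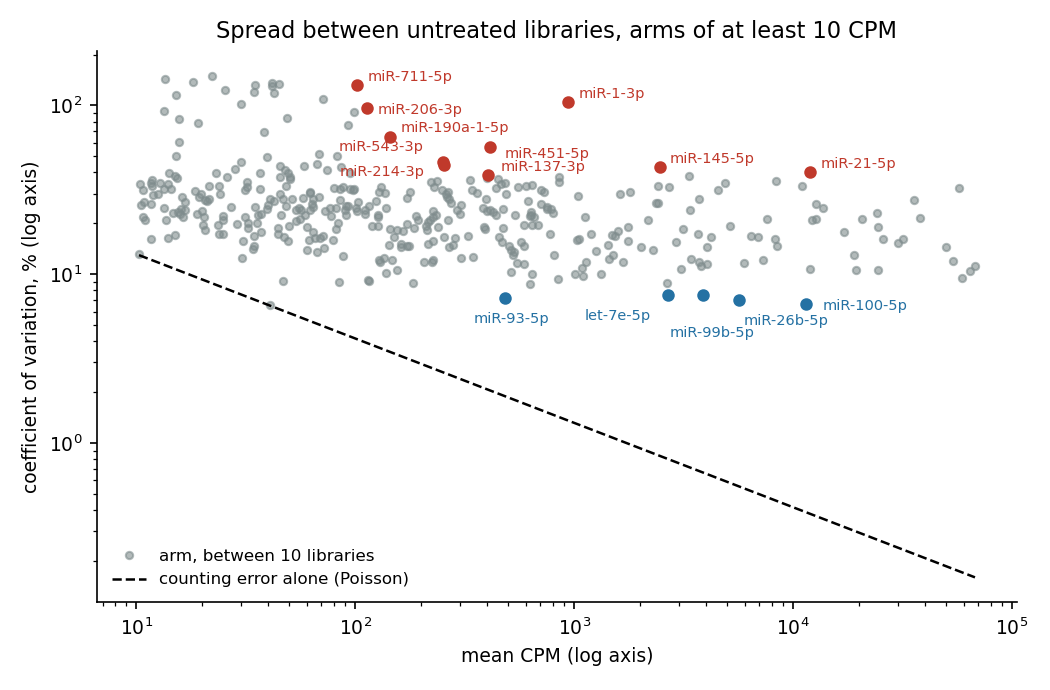
Coefficient of variation between the 10 untreated libraries (percent, log axis) against mean CPM (log axis) for the 393 arms of at least 10 CPM; the dashed line is the variation that counting error alone would give. Arms lie well above the line at high CPM, with miR-711-5p, miR-1-3p and miR-206-3p in red near 100% and the 5 steadiest abundant arms in blue near 7%.

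Lists of cell type markers, of the let-7 family and of the Dlk1-Dio3 and X-linked Fx-mir loci were summed in each library. Some of the listed markers are expressed in several cell types, so the sums do not show which cells the tissue held. The sensory neuron list, led by miR-182-3p, miR-183-5p and miR-96-5p, had 12 of its 15 names in the files and 59555 ± 12325 CPM (SD, n = 10). Matching the other names with an added letter a, chosen after seeing the data, brought in miR-9a, miR-7a and miR-218a. The sum was then 95174 CPM, and the values below leave these miRNAs out. Without them the lowest, median and highest libraries had 46183, 53626 and 87984 CPM, control 10 being lowest and control 1 highest by total scaling. Both ends depended on the scaling: under TMM factors control 7 was lowest at 51161 and control 4 highest at 74835, with control 1 at 68344, and under DESeq2 size factors control 8 was lowest and control 4 highest. miR-183-5p over miR-182-3p was 0.849 ± 0.0638, a CV of 7.52%, while the CV of each alone was 21.3% and 19.1%. miR-96-5p varied more against both: over miR-182-3p it was 0.197 ± 0.0354 (CV 17.9%) and over miR-183-5p 0.234 ± 0.0481 (CV 20.5%). The 3 miRNAs lie on the minus strand of chromosome 4 in GRCr8 and are known to be made from 1 transcript in sensory organs. miR-124-1-3p, the abundant miRNA of brain neurons, averaged 617.8 ± 167.3 CPM.

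The list of fibroblast and smooth muscle miRNAs had 126282 ± 26710 CPM, with 93659 CPM in control 1, a median of 120860 CPM and 183765 CPM in control 10, the lowest and highest libraries under all 3 scalings. miR-143-3p made up 45.2% of it. miR-10a-5p and miR-10b-5p, with 20.3% and 19.4%, mark position along the body axis as well as a cell type, so the list is not specific to fibroblasts. The ratio of the neuron list, without miR-9a, miR-7a and miR-218a, to this list was 0.503 ± 0.198. Scaling drops out of this ratio, and it was lowest in control 10 at 0.251 and highest in control 1 at 0.939. Of the 19 neuron arms of at least 10 CPM, 13 were highest in control 1 by total scaling, against 37.9% of all arms, and 5 were under TMM, against 12.2%. Of the 13 fibroblast and smooth muscle arms, 0 were highest in control 1 under either scaling. In control 10, 6 were highest by total scaling, against 6.62% of all arms, and 7 under TMM, against 13.5%. miR-143-3p over miR-145-5p was 24.4 ± 5.66, although both come from 1 cluster.

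The glial list had 71926 ± 6437 CPM, but miR-27b-3p, which many cell types express, made up 74.5% of it. Of the more specific glial miRNAs, miR-338-5p averaged 2009 ± 288.9 CPM, miR-338-3p 1445 ± 178.7 CPM and miR-204-5p 4050 CPM. miR-219a-1-5p, a marker of the myelinating oligodendrocytes of the central nervous system, averaged 2.96 ± 1.02 CPM. The endothelial list had 18199 ± 3133 CPM, 94.0% of it miR-126a-3p, with control 10 highest at 24787 CPM. The blood cell list had 1970 ± 555.4 CPM, from 1147 CPM in control 4 to 2715 CPM in control 10, led by miR-451-5p, miR-486-5p and miR-150-5p. The liver list, for which miR-122 was the only name in the files, had 2.47 ± 0.597 CPM.

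Muscle miRNAs were present in all 10 libraries. The list had 15415 ± 4518 CPM, with 10663 CPM in control 2, a median of 14034 CPM and 24993 CPM in control 7. miR-1b-3p made up 82.8% of it, miR-133a-3p 6.75%, miR-1-3p 6.10% and miR-499-5p 3.32%. The heart miRNAs miR-208a and miR-208b stayed under 1 CPM on both arms, while miR-499-5p averaged 511.7 CPM. miR-1-3p over miR-1b-3p was 0.0648 ± 0.0529, from 0.0175 in control 4 to 0.160 in control 7, so the 2 near-identical arms did not vary in step. With 1 base between them, how their reads were told apart in the authors' counting bears on this ratio and was not tested.

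The epithelial list had 435.8 ± 233.1 CPM, with 207.6, 357.8 and 999.0 CPM in its lowest, median and highest library. Control 2 was the highest, and 4 of the 5 epithelial arms of at least 10 CPM had their highest level there, against 2.04% of all arms, and 4 also did under TMM, against 1.27%. The remaining arm was highest in control 7. miR-203a-3p, the most abundant of them, made up 52.6% of the list. The miR-203 family, which also holds miR-203b, had 0.0362% of arm counts in control 7, its highest library, and 0.0357% in control 2. The Dlk1-Dio3 list is a set of miRNAs of the imprinted locus, with 48 of its 54 names found, and need not hold all of them. It had 49597 ± 9658 CPM, 48.9% of it miR-127-3p. The list had 66534 CPM in control 1, 65676 CPM in control 4 and 40093 CPM in control 9. Of its 67 arms of at least 10 CPM, 42 were highest in control 1 by total scaling, against 37.9% of all arms, and 15 in control 4, against 9.41%. Under TMM 13 were highest in control 1, against 12.2%, and 36 were highest in control 4, against 20.1% of all arms, so the leading library changed with the scaling. The X-linked Fx-mir cluster, known for expression in testis, had 115.8 ± 80.2 CPM, in 2 separate ranges. Controls 1, 2, 3 and 9 had 224.7, 208.4, 216.0 and 181.0 CPM, and the other 6 had 33.9 to 67.5 CPM. The members differed: miR-881-3p reached 146.3 CPM in control 1 and 164.5 CPM in control 3, while miR-741-3p was high in controls 2 and 9, at 47.5 and 41.5 CPM.

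**Figure D5:**
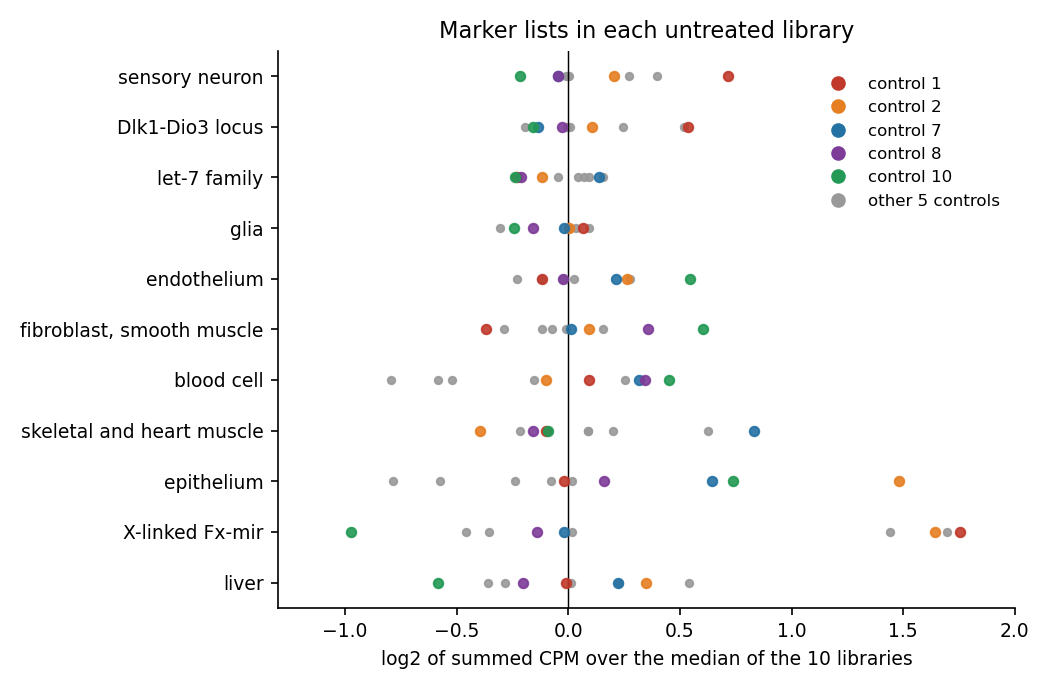
Summed level of each marker list in each untreated library, as log2 of its CPM over the median of the 10 libraries; colours mark controls 1, 2, 7, 8 and 10 and the other 5 libraries are grey. By this total scaling control 1 is highest for the sensory neuron list (87984 CPM), where under TMM control 4 is, and lowest for the fibroblast and smooth muscle list (93659 CPM); control 10 is the reverse, though not lowest for neurons under TMM, and control 2 is highest for the epithelial list (999.0 CPM).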

How the data were processed

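The 10 small RNA libraries of untreated rat ganglia were used. The other 50 libraries of the series were not used here. Per the file headers, the authors deposited raw counts for 439 hairpin and 879 arm features per library. The submitters' processing notes list STAR 2.7.0, cutadapt 2.1.0, Trim Galore 0.6.4, FastQC 0.11.8, Bismark 0.22.0, DESeq2 1.29.0 and rn4 with no roles. The counting rule and the aligner of these files: not given in the sources used here.

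Counts were divided by each library's arm total to give CPM. 5p was tested against 3p with edgeR 4.0.16 (R 4.3.3; glmQLFit and glmQLFTest, robust) on counts, with the library as a block, because both arms come from the same library, at least 50 counts per hairpin, and Benjamini-Hochberg adjustment over 405 hairpins at 0.05. Alternatives were DESeq2 1.42.0, an exact sign-flip permutation test, no block, no filter, a minimum of 100 CPM, TMM factors, and libraries left out. Families joined arms of 1 number. Spread used arms of at least 10 CPM. Named were the 20 most abundant arms, the 10 largest families, the 5 steepest hairpins each way with those not called or with disagreeing libraries (at least 100 CPM), the 10 widest and 5 steadiest arms (at least 100 CPM) and the leading arms of each list; other arms were named after their values were seen. The members and lists were chosen with earlier results of these data known. The test was checked on simulated data. The labels do not say that each library is a separate rat; p-values measure only the spread between these libraries, which may be partly technical. Sequences came from RefSeq, by name (497 arms), by name without the copy number (53) or by position in the hairpin (111).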

Additional observations from a re-analysis of the deposited data

Results flagged for a closer look

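Of 59 values examined across the 10 libraries, 8 had 1 library farther from the rest than Dixon's 95% critical value for 10 samples. The values included arms that had been named for their wide spread, among them miR-206-3p, miR-190a-1-5p, miR-145-5p and miR-137-3p. miR-30a-5p is also part of the miR-30 family. The chance rate of 1 in 20 holds for values chosen beforehand and independent of each other, so it cannot be set against these 8. Control 8 stood apart for miR-30a-5p, at 59328 CPM with the next library at 41670 CPM, for the miR-30 family, at 10.5% of counts with the next at 8.10%, and for miR-190a-1-5p, at 387.6 CPM with the next at 207.3 CPM. miR-30e-5p was also highest in control 8, at 9212 CPM. Control 10 stood apart for miR-145-5p, at 5156 CPM with the next library at 3245 CPM, and for the share of counts from 5p arms, which was lowest there at 60.5% with the next lowest at 64.1%. Control 1 stood apart for miR-137-3p, at 828.0 CPM with the next at 415.0 CPM. Control 7 stood apart for miR-206-3p, at 384.3 CPM with the next at 180.5 CPM. Control 2 stood apart for the summed epithelial list, at 999.0 CPM with the next at 596.7 CPM.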

How the results depend on the processing

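The share of counts in the 10 most abundant arms was 48.9% to 49.5% under the scaling alternatives and without controls 1, 2 and 3. Scaling multiplies all arms of a library by the same factor, so the share within a library could not change under it. The scaling alternatives are therefore no check of this share. Grouped by seed, the miR-30 family held 5.28% and the miR-10 family 2.56%, the first because miR-30b-5p and miR-30d-5p were not grouped by seed, the second because each miR-10 arm has its own. With a minimum of 100 CPM, 86 arms spread over 2-fold, and with no minimum 676, since fewer or more arms were counted. Leaving out 1 library gave 163 to 207. Leaving out controls 1, 2 and 3 gave 139 (36.0%), with fewer libraries to range over. At 100 CPM or more the hairpins called were 98 for 5p and 80 for 3p, with 7 not called. No replicate block gave 176 for 5p, 161 for 3p and 68 not called; the unpaired fit lost 15 calls and gained 4, among the lost miR-380 and miR-409a. DESeq2 called 183 and 168, the exact sign-flip test 185 and 165, and leaving out 1 library 177 to 183 and 161 to 168, with 50 to 61 not called. In no alternative did a called hairpin change direction. Some alternatives could not have turned one. TMM factors were the same for both arms of a library, and the minimums only set which hairpins were kept. Without controls 1, 2 and 3 miR-409a and miR-667 were not called; the cause was not tested. Matching list names also with an added letter a, chosen after seeing the data, brought miR-9a, miR-7a and miR-218a into the sensory neuron list, which then summed to 95174 CPM. Turning the arms of miR-182, likewise chosen after seeing the data, gave a 5p share of 67.6%. Depth limits the lower arms: the ratios of miR-1 and miR-182 rest on 3 and 11 counts.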
